A study of Mus musculus with 9 samples.

Results

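Macrophage marker genes were described in heart RNA of mice with myocardial ischemia/reperfusion injury (MIRI). The markers were 10 genes taken by symbol, Adgre1, Cd68, Csf1r, Mrc1, Cd163, Lyve1, Folr2, Cx3cr1, Ly6c2 and Arg1, and each matched 1 of the 54409 gene identifiers that carry a symbol, out of 54532 in the count table. Male wild-type C57BL/6J mice aged 8 to 10 weeks were used, with 3 animals sequenced in each of 3 groups. Sham mice had a suture passed under the left anterior descending artery without ligation, MIRI mice had 30 min of ligation and 24 h of reperfusion and received saline, and GXNI mice had the same injury and received Guanxinning injection, a preparation of Danshen and Chuanxiong, at 9 mL/kg. Saline or drug was given by the tail vein within 10 min of ischemia. Library totals lay between 17119454 and 22811295 counts, and values are given as normalized CPM, which is the counts of a gene in every 1000000 counts of a library after scaling between libraries. All 10 markers passed the filter on low counts in every comparison.

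The labels name the cell type as cardiomyocytes and the tissue as heart. The 8 cardiomyocyte genes examined, Myh6, Mb and Actc1 among them, summed to 29870 to 47420 CPM, and the genes of macrophages, fibroblasts and endothelium were counted in every library too. In RNA of such mixed tissue fewer macrophages and less RNA of a gene per macrophage cannot be told apart. For 2 of the 9 libraries the labels are in doubt. The fold changes published with the study were obtained from these counts when the library labelled MIRI 2 was taken as GXNI and the library labelled GXNI 3 as MIRI, and were not obtained with the deposited labels. The markers are therefore given in every comparison with the deposited labels first, and then with these labels exchanged. A gene was called when its fold change reached 1.5 and its p, before adjustment, was 0.01 or less.

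Macrophages of the adult mouse heart are of mixed origin. Resident macrophages, many of which derive from the embryo and renew themselves in place, carry the scavenger receptors Mrc1 and Cd163, the hyaluronan receptor Lyve1 and the folate receptor Folr2. After ischemia, monocytes with high Ly6C and Ccr2 leave the blood, enter the injured muscle and become macrophages that can make the urea cycle enzyme Arg1, whereas Cx3cr1 marks patrolling monocytes and part of the resident cells. Adgre1 (the F4/80 antigen), the lysosomal glycoprotein Cd68 and Csf1r, the receptor of the growth factors CSF1 and IL-34, are shared by most macrophages, and Csf1r is needed for their survival.

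Promoter windows of 300 bases, from 250 before to 50 after the start of the gene, were taken from RefSeq (build GRCm38.p6) for 6 of the 10 markers. The windows of 4 genes are shown, because Ly6c2 and its endothelial paralog Ly6c1 carried alike sequence and unlike values, and the log2 CPM of Cd68 and Cd163 went in opposite senses across the libraries (r = -0.605). Capitals mark the core GAGGAA, on either strand, found in the motif of PU.1, the factor of myeloid identity. The first window listed for each gene was taken. The Ly6c2 window is chr15:75111922-75112221 (minus strand), the Ly6c1 window chr15:75048788-75049087 (minus strand), the Cd68 window chr11:69666121-69666420 (minus strand) and the Cd163 window chr6:124304401-124304700 (plus strand).
Ly6c2: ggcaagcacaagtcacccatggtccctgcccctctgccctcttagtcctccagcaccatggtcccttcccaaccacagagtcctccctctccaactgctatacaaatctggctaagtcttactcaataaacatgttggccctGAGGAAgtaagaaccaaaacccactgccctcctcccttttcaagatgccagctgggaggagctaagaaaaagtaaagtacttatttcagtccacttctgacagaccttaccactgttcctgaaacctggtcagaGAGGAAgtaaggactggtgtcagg
Ly6c1: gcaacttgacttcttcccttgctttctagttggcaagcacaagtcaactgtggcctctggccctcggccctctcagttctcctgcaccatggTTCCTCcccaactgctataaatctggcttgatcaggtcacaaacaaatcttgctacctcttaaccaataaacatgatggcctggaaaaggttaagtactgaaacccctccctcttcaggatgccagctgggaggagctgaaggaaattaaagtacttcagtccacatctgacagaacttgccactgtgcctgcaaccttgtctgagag
Cd68: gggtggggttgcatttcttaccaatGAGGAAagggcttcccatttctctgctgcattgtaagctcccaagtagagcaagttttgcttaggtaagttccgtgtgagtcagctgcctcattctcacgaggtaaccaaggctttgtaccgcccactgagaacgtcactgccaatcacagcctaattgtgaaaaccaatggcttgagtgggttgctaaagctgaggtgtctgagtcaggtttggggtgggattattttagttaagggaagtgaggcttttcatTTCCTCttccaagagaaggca
Cd163: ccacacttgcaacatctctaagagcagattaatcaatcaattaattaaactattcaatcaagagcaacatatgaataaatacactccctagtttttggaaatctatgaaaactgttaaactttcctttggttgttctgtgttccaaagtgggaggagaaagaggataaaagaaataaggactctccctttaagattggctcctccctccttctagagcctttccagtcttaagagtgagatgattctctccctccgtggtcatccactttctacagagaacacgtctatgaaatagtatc

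The Ly6c2 window held the core at 2 places, positions -108 and 27 from the start, and the Cd68 window also at 2 places, positions -225 and 30. The Ly6c1 window held it at 1 place, position -158, on the other strand, and the Cd163 window held none. The Ly6c1 window shown ends within a further core, which another window of Ly6c1, lying downstream, held whole at position -127. The difference between Ly6c2 and Ly6c1 in the number of places thus depends on where the windows end. Over all 32851 promoter windows of the same length, 28.3% held this core at least once. The AP-1 motif TGANTCA was present at positions -149 and -24 of the Cd68 window, without overlap with the core, and in 7.81% of all windows. Among the markers whose windows are not shown, Mrc1 held the core at 3 places, and Folr2 and Cx3cr1 held none. The log2 CPM of Mrc1 went with that of Cd163 (r = 0.867). An AP-1 motif was also present in 1 window of Folr2, at position -74. The letters of Ly6c2 and Ly6c1 were identical at 208 of 266 aligned bases (78.2%).

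In sham hearts the markers lay at different levels. Counted per kilobase of exon, so that genes can be compared, Lyve1 had the highest mean level at 13.55 ± 2.32 CPM per kb (SD, n = 3) and Csf1r followed at 10.2 ± 0.618 CPM per kb (SD, n = 3). Cd68 (9.53 CPM per kb), Mrc1 (8.0 CPM per kb), Cd163 (7.95 CPM per kb) and Adgre1 (7.38 CPM per kb) came next, and each overlapped its neighbour in this order. Arg1 (3.25 CPM per kb) and Folr2 (3.24 CPM per kb) were lower and overlapped each other, as did Ly6c2 (1.285 CPM per kb) and Cx3cr1 (1.28 CPM per kb) at the low end. The ranges of neighbours were apart at 3 steps, between Lyve1 and Csf1r, between Adgre1 and Arg1, and between Folr2 and Ly6c2.

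Of the markers shared by most macrophages, Csf1r was the steadiest. Csf1r had 59.2, 61.95 and 54.9 CPM in sham 1 to 3, 70.3, 40.02 and 65.3 CPM in MIRI 1 to 3, and 73.6, 47.2 and 54.8 CPM in GXNI 1 to 3. The highest library held 1.84 times the lowest, which was the smallest such ratio among the 10 markers, and the 3 groups overlapped. Adgre1, an adhesion receptor, had 24.3, 28.3 and 19.1 CPM in sham, 26.1, 13.2 and 20.3 CPM in MIRI, and 24.5, 17.5 and 14.3 CPM in GXNI mice. These groups overlapped too, with the lowest value in the library labelled MIRI 2. Cd68 had 9.72, 14.3 and 11.9 CPM in sham, 23.6, 10.8 and 29.9 CPM in MIRI, and 14.9, 18.5 and 23.55 CPM in GXNI mice. Every GXNI library and all MIRI libraries other than the one labelled MIRI 2 were above the highest sham library.

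Mrc1, Cd163 and Lyve1 were high and low in the same GXNI libraries, and for all 4 resident markers the groups overlapped. Mrc1, the mannose receptor, had 64.2, 47.2 and 41.5 CPM in sham, 45.7, 37.3 and 48.2 CPM in MIRI, and 78.5, 40.02 and 23.4 CPM in GXNI mice. Cd163, the receptor for hemoglobin bound to haptoglobin, had 63.2, 40.03 and 27.0 CPM in sham, 36.1, 48.2 and 24.7 CPM in MIRI, and 82.9, 22.7 and 12.5 CPM in GXNI mice. Lyve1 had 47.2, 37.35 and 34.15 CPM in sham, 38.1, 50.8 and 40.1 CPM in MIRI, and 85.0, 28.2 and 27.9 CPM in GXNI mice. All 3 genes had their highest value in GXNI 1 and their lowest in the library labelled GXNI 3, so that 1 group held both ends of the range and the groups overlapped.

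Folr2 had the lowest counts of the resident markers, with 3.65, 7.04 and 4.34 CPM in sham, 5.30, 3.996 and 2.51 CPM in MIRI, and 5.265, 2.28 and 1.51 CPM in GXNI mice. Its lowest value was again in the library labelled GXNI 3, and its highest was in sham 2. Over the 9 libraries the log2 CPM of Mrc1 correlated with that of Cd163 (Pearson r = 0.867) and Lyve1 (r = 0.773), and Cd163 with Lyve1 (r = 0.877), as descriptions over libraries that share their groups. Folr2 went with Cd163 at 0.735, Mrc1 at 0.618 and Lyve1 at 0.521, and with Cx3cr1 at 0.689 and Adgre1 at 0.682. Of the other cell types, the 6 fibroblast genes had their highest sum, 1108 CPM, in GXNI 1 and their lowest, 472 CPM, in GXNI 3, with 845 to 926 CPM in sham and 611 to 784 CPM in MIRI mice. The 5 mesothelial genes summed to 72.4 CPM in GXNI 1 and to between 8.94 and 23.96 CPM in the other 8 libraries, with Upk1b and Upk3b at 0 counts in MIRI 1 and GXNI 3. The library labelled MIRI 2 had the highest mean log2 CPM of the 4 atrial genes (2.61, against at most 0.76 elsewhere). It also had that of the 5 adipocyte genes (1.15, against at most -0.93 elsewhere), of which 3 exceeded 3 counts in a library. The sums of these lists, 169 and 459 CPM, were not the highest. The part of all these cells in the values of GXNI 1, GXNI 3 and MIRI 2 was not tested.

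**Figure D1:**
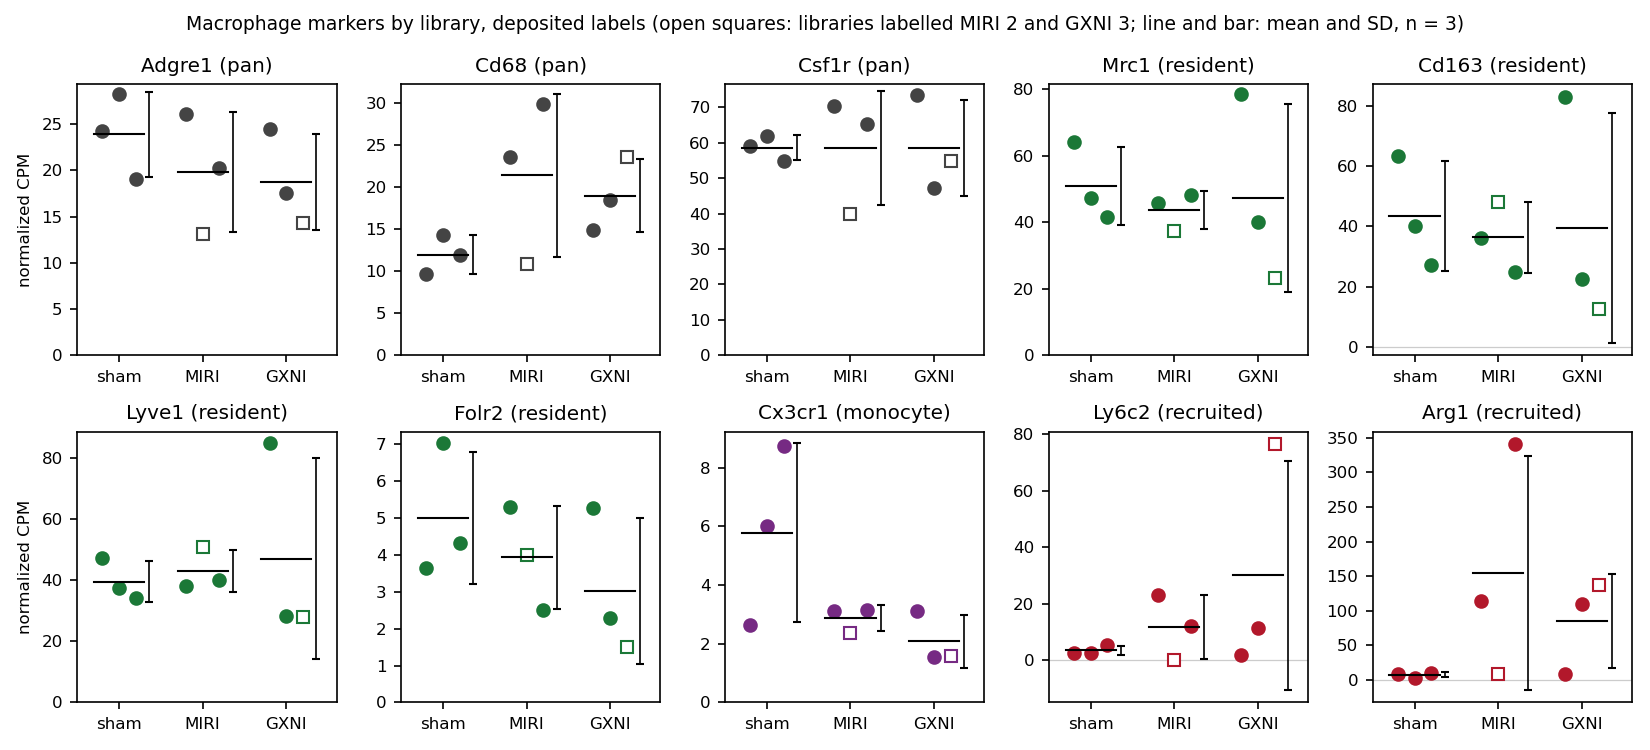
Normalized CPM of the 10 macrophage markers in each library (vertical axis, linear) for the sham, MIRI and GXNI groups of the deposited labels, with 1 point per mouse, a line at the group mean and a bar of 1 SD (n = 3). Open squares are the libraries labelled MIRI 2 and GXNI 3. Arg1 was at 109 to 341 CPM in MIRI 1, MIRI 3, GXNI 2 and GXNI 3 and at most 10.01 CPM in the other libraries, while Mrc1, Cd163 and Lyve1 were highest in GXNI 1.

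Arg1 and Ly6c2, the markers of recruited cells, were high in the same libraries. Arg1 had 8.92, 2.78 and 10.01 CPM in sham, 114, 8.99 and 341 CPM in MIRI, and 8.64, 109 and 138 CPM in GXNI mice. The values fell into a low range from 2.78 to 10.01 CPM, which held all sham libraries, the library labelled MIRI 2 and GXNI 1, and a high range from 109 to 341 CPM, which held MIRI 1, MIRI 3, GXNI 2 and the library labelled GXNI 3. Ly6c2, a surface antigen of inflammatory monocytes, had 2.69, 2.58 and 5.30 CPM in sham, 23.0, 0.176 and 12.2 CPM in MIRI, and 1.94, 11.6 and 76.5 CPM in GXNI mice. The same 4 libraries were above the highest sham library. The library labelled MIRI 2 held 3 counts of Ly6c2, for which the exact Poisson interval at 95% is 0.0364 to 0.515 CPM and covers counting error only.

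Cx3cr1, the fractalkine receptor of patrolling monocytes and some resident cells, had 2.63, 6.001 and 8.725 CPM in sham, 3.115, 2.35 and 3.16 CPM in MIRI, and 3.13, 1.54 and 1.57 CPM in GXNI mice. Sham 2 and sham 3 were above every MIRI and GXNI library, and sham 1 lay within their range. These values rest on 27 to 163 counts per library.

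Ly6c2 and Ly6c1 lie close together on chromosome 15, and 13.9% of the distinct 50-base stretches of Ly6c2 transcripts also occur in those of Ly6c1. In turn, 21.5% of the distinct stretches of Ly6c1 transcripts occur in those of Ly6c2. Reads from these stretches cannot be assigned to 1 of the genes with certainty. How such reads were counted is not given in the sources used here. Ly6c1 was above Ly6c2 in every library, so the uncertainty of Ly6c2 is not limited to its own share of 13.9%. The library labelled MIRI 2 had 0.176 CPM of Ly6c2 beside 160 CPM of Ly6c1. Ly6c1, which is abundant in heart endothelium, had 245.6, 259.5 and 249.1 CPM in sham, 191, 160 and 132 CPM in MIRI, and 192, 205 and 163 CPM in GXNI mice. Every sham library was above every other library, and Ly6c1 was called lower in MIRI than in sham mice (log2 fold change -0.63, SE 0.17, adjusted p = 0.092, edgeR), also with exchanged labels (-0.63, SE 0.14, adjusted p = 0.00531, edgeR). The log2 ratio of Ly6c2 to Ly6c1 ranged from -9.83 in the library labelled MIRI 2 to -1.09 in the library labelled GXNI 3, and lay between -6.65 and -5.555 in sham mice.

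In MIRI against sham mice, Arg1 rose and the other 9 markers did not pass the call rule. Arg1 went from 7.235 ± 3.90 to 155 ± 169.8 CPM (SD, n = 3), a log2 fold change of 4.43 (SE 1.21, adjusted p = 0.0972, quasi-likelihood test of edgeR). Over all genes 6.15% were called higher and 2.82% lower in this comparison, and among the markers 1 was higher and 0 lower. The median log2 fold change was -0.10 over the 10 markers and -0.0015 over all genes tested. The call of Arg1 was lost without sham 1 (4.601), sham 2 (4.03), sham 3 (4.72), MIRI 1 (4.604) or MIRI 3 (3.12, adjusted p = 0.232, edgeR), and was kept without the library labelled MIRI 2 (4.98, adjusted p = 0.000841, edgeR).

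The values of Csf1r and the resident markers in MIRI mice lay near those of sham mice. Mrc1 had a log2 fold change of -0.21 (SE 0.20), with -0.25 for Cd163 (SE 0.36), 0.13 for Lyve1 (SE 0.18), -0.34 for Folr2 (SE 0.37) and 0.01 for Csf1r (SE 0.22). For each of these genes the sham and MIRI libraries overlapped. Cd68 had a log2 fold change of 0.85 (SE 0.36, adjusted p = 0.178, edgeR) and Cx3cr1 of -0.99 (SE 0.42, adjusted p = 0.179, edgeR), and neither passed. Ly6c2 had 1.76 (SE 1.13, adjusted p = 0.328, edgeR). When the library labelled MIRI 2, with its 3 counts of Ly6c2, was left out, Cd68 (1.16, adjusted p = 0.00258, edgeR) and Ly6c2 (2.33, adjusted p = 0.00267, edgeR) were called higher. Without MIRI 1 the value of Ly6c2 was 0.83 (SE 1.23, adjusted p = 0.72, edgeR). Without sham 1, Cx3cr1 was called lower (-1.35, adjusted p = 0.253, edgeR).

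With the labels exchanged, 3 markers rose in MIRI against sham mice, and 19.2% of all genes were called higher and 16.6% lower. Arg1 rose from 7.235 ± 3.90 to 198 ± 125 CPM (SD, n = 3), a log2 fold change of 4.77 (SE 0.57, adjusted p = 0.000243, edgeR). Ly6c2 rose from 3.52 ± 1.54 to 37.2 ± 34.4 CPM (SD, n = 3), by 3.40 (SE 0.68, adjusted p = 0.00318, edgeR), and Cd68 from 12.0 ± 2.28 to 25.7 ± 3.635 CPM (SD, n = 3), by 1.10 (SE 0.16, adjusted p = 0.000759, edgeR). No MIRI library overlapped the sham libraries for these 3 genes. None of the markers was called lower. Cd163 had -0.82 (SE 0.39, adjusted p = 0.106, edgeR), Cx3cr1 -1.13 (SE 0.43, adjusted p = 0.0522, edgeR, and called lower by DESeq2, adjusted p = 0.0192) and Folr2 -0.68 (SE 0.43, adjusted p = 0.221, edgeR). Csf1r stayed at 0.11 (SE 0.12).

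**Figure D2:**
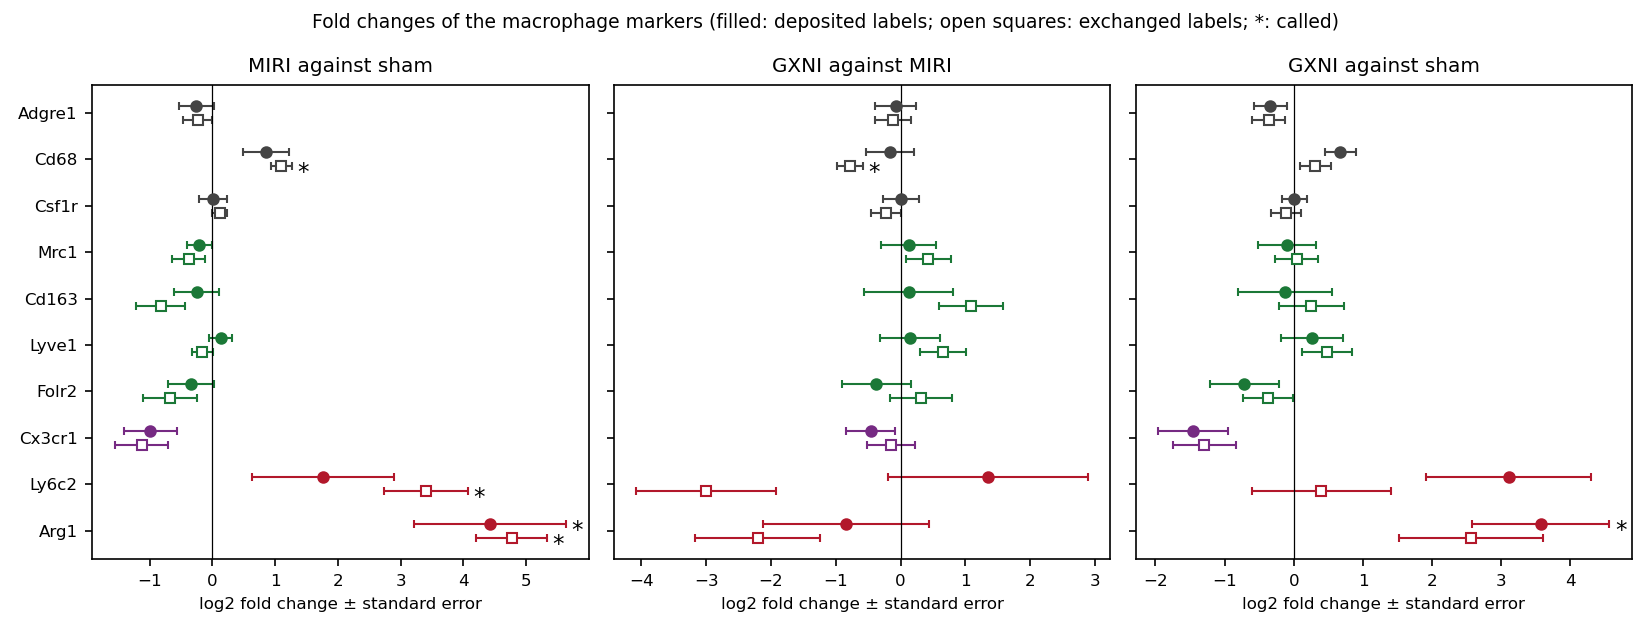
Log2 fold changes of the 10 markers (horizontal axis, bars of 1 standard error, edgeR) in the 3 comparisons, with the deposited labels as filled circles and the exchanged labels as open squares, coloured by role (grey shared, green resident, red recruited, purple Cx3cr1). An asterisk marks a call, and Arg1 in MIRI against sham was the marker called with both sets of labels.

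GXNI against MIRI mice addresses the effect of the injection on the injured heart. With the deposited labels no marker was called in either direction. Over all genes 0.0% were called higher and 0.0203% lower, 47 genes had an unadjusted p under 0.05 in edgeR, and DESeq2 called 4 genes higher and 7 lower, none of them a marker. The log2 fold change was 1.35 for Ly6c2 (SE 1.54) and -0.84 for Arg1 (SE 1.28), both far within the spread between mice, since each group held libraries of the high and of the low range. For Cx3cr1 (-0.46, SE 0.38) and Folr2 (-0.37, SE 0.53) the MIRI and GXNI libraries overlapped too. The remaining 6 markers lay between -0.17 for Cd68 and 0.14 for Lyve1, and every marker had an adjusted p = 1 in edgeR.

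With the labels exchanged, Cd68 was lower in GXNI than in MIRI mice. It had 14.7 ± 3.845 CPM in GXNI against 25.7 ± 3.635 CPM in MIRI mice (SD, n = 3), a change of -0.78 on the log2 scale (SE 0.20, adjusted p = 0.0312, edgeR). In this comparison 8.56% of all genes were called higher and 10.7% lower, and among the markers 0 and 1. Ly6c2 was at 4.57 ± 6.15 against 37.2 ± 34.4 CPM (SD, n = 3), which gives -3.001 on the log2 scale (SE 1.08, adjusted p = 0.0744, edgeR), and Arg1 at 42.3 ± 58.0 against 198 ± 125 CPM (SD, n = 3), with -2.21 (SE 0.96, adjusted p = 0.121, edgeR). Neither passed. The high GXNI library for both was GXNI 2, at 11.6 CPM of Ly6c2 and 109 CPM of Arg1. The resident markers had positive values, 1.08 for Cd163 (SE 0.50, adjusted p = 0.138, edgeR), 0.65 for Lyve1 (SE 0.36), 0.43 for Mrc1 (SE 0.35) and 0.31 for Folr2 (SE 0.49), and none passed the call rule.

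When the libraries labelled MIRI 2 and GXNI 3 were both left out, no marker was called in GXNI against MIRI mice. Cd68 then had a log2 fold change of -0.67 (SE 0.21, adjusted p = 0.213, edgeR), Ly6c2 -1.38 (SE 0.76), Arg1 -1.93 (SE 1.085, adjusted p = 0.362, edgeR) and Cd163 0.81 (SE 0.58). Ly6c2 thus turned from a positive to a negative value with either treatment of these libraries.

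GXNI against sham mice shares the sham libraries with the first comparison. With the deposited labels Arg1 rose to 85.3 ± 67.9 CPM (SD, n = 3), a log2 fold change of 3.57 (SE 0.99, adjusted p = 0.219, edgeR), where 2.67% of all genes were called higher and 1.54% lower. The other 9 markers were not called. Among them the values were 3.11 for Ly6c2 (SE 1.19, adjusted p = 0.233, edgeR), -1.46 for Cx3cr1 (SE 0.50, adjusted p = 0.223, edgeR), -0.71 for Folr2 (SE 0.50, adjusted p = 0.416, edgeR) and 0.68 for Cd68 (SE 0.23, adjusted p = 0.223, edgeR), and the GXNI and sham libraries did not overlap for Cd68. DESeq2 called Cx3cr1 lower (-1.46, adjusted p = 0.0697). The call of Arg1 was lost without sham 1, sham 2, sham 3, GXNI 2 or GXNI 3 (3.75, 3.18, 3.87, 3.36 and 3.03 on the log2 scale) and with all 9 libraries in 1 fit (3.56, adjusted p = 0.296, edgeR). Without GXNI 1, Ly6c2 (3.66, adjusted p = 0.0305, edgeR) and Cd68 (0.82, adjusted p = 0.0463, edgeR) were called higher too, whereas without the library labelled GXNI 3 the value of Ly6c2 was 0.95 (SE 0.70, adjusted p = 0.529, edgeR). Without sham 1, Cx3cr1 was called lower (-1.81, adjusted p = 0.438, edgeR).

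With the labels exchanged, no marker was called by edgeR in GXNI against sham mice, against 2.16% of all genes called higher and 1.56% lower. Arg1 had a log2 fold change of 2.56 (SE 1.04, adjusted p = 0.289, edgeR) and Cx3cr1 of -1.29 (SE 0.45, adjusted p = 0.245, edgeR, and called lower by DESeq2, adjusted p = 0.0843). Ly6c2 was at 0.39 (SE 1.01) and Cd68 at 0.31 (SE 0.22). Cx3cr1 was negative against sham with both sets of labels in MIRI and in GXNI mice, at -0.99, -1.13, -1.46 and -1.29, all 4 of which rest on the same 3 sham libraries.

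To set the markers against a gene of most macrophages, each was divided by Csf1r in the same library. These ratios are not corrected for gene length, so that they serve to set libraries side by side, and were not tested. The log2 ratio of Cd68 to Csf1r was -2.61 to -2.12 in sham mice, -1.89 to -1.13 in MIRI mice and -2.305 to -1.22 in GXNI mice, so every MIRI library was above every sham library, the one labelled MIRI 2 included. The ratio of Arg1 to Csf1r was -4.48 to -2.455 in sham mice and reached 0.70, 2.39, 1.21 and 1.33 in MIRI 1, MIRI 3, GXNI 2 and GXNI 3. It lay at -2.15 in MIRI 2 and -3.09 in GXNI 1. With the deposited labels the ratio of Cx3cr1 to Csf1r was -5.13 to -4.56 in GXNI mice and -4.49 to -2.65 in sham mice, without overlap. It was -4.50 to -4.09 in MIRI mice. With the labels exchanged, the GXNI mice include the library labelled MIRI 2, at -4.09, which lies within the sham range.

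Cd163, Lyve1 and Mrc1 relative to Csf1r were highest in sham 1, the library labelled MIRI 2 and GXNI 1. The log2 ratio of Cd163 to Csf1r was 0.09, 0.27 and 0.17 in these 3 libraries and between -0.63 and -2.13 in the other 6. The ratio of Lyve1 to Csf1r was 0.34 in MIRI 2 and 0.21 in GXNI 1, and -0.97 to -0.33 elsewhere. The ratio of Mrc1 to Csf1r was lowest, at -1.23, in the library labelled GXNI 3, and the ratio of Folr2 to Csf1r was lowest there as well, at -5.18.

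**Figure D3:**
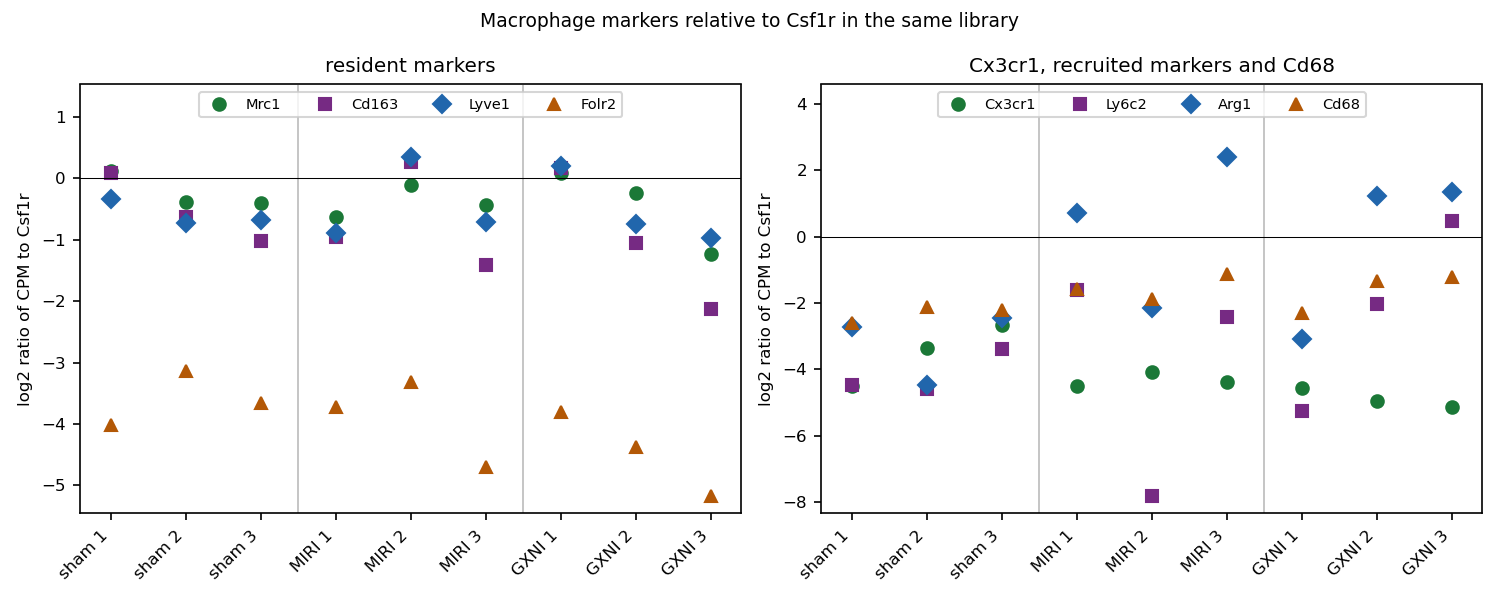
Log2 ratio of the CPM of each marker to that of Csf1r in the same library (vertical axis), for the 4 resident markers at the left and for Cx3cr1, Ly6c2, Arg1 and Cd68 at the right, with 1 point per gene and library under the deposited labels. The ratio of Arg1 was highest in MIRI 1, MIRI 3, GXNI 2 and GXNI 3 (0.70 to 2.39), and that of Cd163 in sham 1, MIRI 2 and GXNI 1 (0.09 to 0.27).

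Other genes of the macrophage system were taken from lists of general knowledge. Of 15 other genes of most macrophages, 0 were called in any comparison with the deposited labels. Over all genes 6.15% were then called higher and 2.82% lower in MIRI against sham. With exchanged labels 9 of the 15 were higher in MIRI than in sham mice, against 19.2% of all genes. In GXNI against MIRI 8 of the 15 were lower, against 10.7% of all genes, and in GXNI against sham 0 were called. The complement genes C1qa and C1qb were not among the genes called. Their log2 fold changes in MIRI against sham were -0.49 (SE 0.21) and -0.44 (SE 0.19) under exchanged labels and -0.32 (SE 0.14) and -0.35 (SE 0.15) under the deposited ones. Lyz2, the macrophage and granulocyte lysozyme, had a log2 fold change of -0.24 (SE 0.33, adjusted p = 1, edgeR) in GXNI against MIRI with the deposited labels and was called lower with exchanged ones (-0.66, SE 0.19, adjusted p = 0.0403, edgeR).

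Of 12 other genes of resident macrophages, 2 were higher in MIRI than in sham mice, F13a1 and Ccl24, the second of which was singled out after its values were seen. Over all genes 6.15% were called higher in this comparison with the deposited labels. F13a1, the A chain of coagulation factor XIII, had 68.9, 75.1 and 61.8 CPM in sham, 118, 97.8 and 160 CPM in MIRI, and 162, 88.9 and 122 CPM in GXNI mice. Every MIRI and GXNI library was above every sham library, with either set of labels. Its log2 fold change in MIRI against sham was 0.88 (SE 0.20, adjusted p = 0.0784, edgeR), and 0.96 with exchanged labels (SE 0.14, adjusted p = 0.0006, edgeR). The chemokine gene Ccl24 had 0.535 to 1.09 CPM in sham mice and 2.185 to 6.67 CPM in the other 6 libraries. Gas6, a ligand of the receptor MERTK in the uptake of dead cells, had log2 fold changes of -0.57 (SE 0.21) in MIRI against sham and 0.22 (SE 0.40) in GXNI against MIRI with the deposited labels, neither called. With exchanged labels it was lower in MIRI than in sham mice (-0.93, SE 0.15, adjusted p = 0.001, edgeR), and its level in GXNI mice was above that in MIRI mice (0.82, SE 0.22, adjusted p = 0.0336, edgeR), which are values that share the MIRI libraries. Of the 6 fibroblast genes, 5 had negative and 1 positive log2 fold changes in MIRI against sham with exchanged labels (median -0.64). The part of other cells in the values of Gas6 was not tested. Stab1, a scavenger receptor, was not called in any comparison with either set of labels. The median log2 fold change of the 12 genes in MIRI against sham was 0.18 with the deposited and 0.02 with the exchanged labels.

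Of 14 other genes of recruited monocytes and macrophages, 13 of which were tested, 4 were higher in MIRI than in sham mice with the deposited labels, Chil3, Fn1, Trem1 and Vcan, of which the last pair was singled out after its values were seen. With exchanged labels 11 were higher, and 7 were lower in GXNI than in MIRI mice, against 0 with the deposited labels. The share of all genes called higher in MIRI against sham was 6.15% with the deposited and 19.2% with the exchanged labels. In GXNI against MIRI the share called lower was 0.0203% and 10.7%, respectively. The median log2 fold change of the 13 genes tested in MIRI against sham was 2.31 with the deposited and 3.18 with the exchanged labels. Chil3, a chitinase-like protein, had 1.835 to 4.925 CPM in sham mice, 64.3, 4.82 and 161 CPM in MIRI, and 6.21, 45.2 and 154 CPM in GXNI mice. These are the same 4 high libraries as for Arg1, and the log2 ratio of Arg1 to Chil3 stayed between -0.16 and 1.42 over all 9 libraries. Ccr2, the receptor by which monocytes leave the marrow, had 39.1 CPM in MIRI 1, 38.8 CPM in MIRI 3 and 39.8 CPM in GXNI 3. It had 10.2 to 18.5 CPM in sham mice, 17.55 CPM in GXNI 2, 9.29 CPM in GXNI 1 and 4.35 CPM in MIRI 2. The heme oxygenase Hmox1 had a log2 fold change of 2.35 (SE 0.79, adjusted p = 0.125, edgeR) in MIRI against sham with the deposited labels and rose by 3.33 (SE 0.36, adjusted p = 0.000164, edgeR) with exchanged ones. In GXNI against MIRI its direction turned, from 0.40 (SE 1.13, adjusted p = 1, edgeR) to a call as lower with exchanged labels (-2.62, SE 0.58, adjusted p = 0.0219, edgeR).

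**Figure D4:**
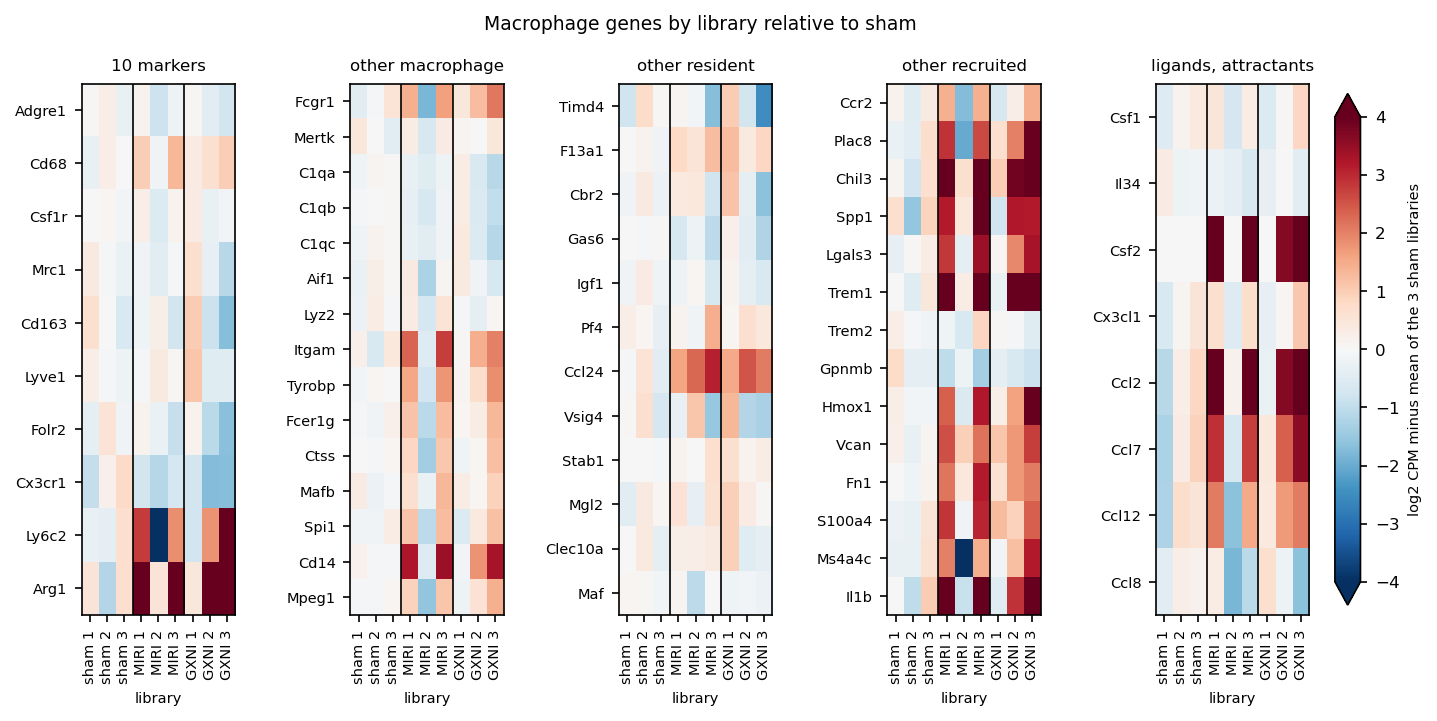
Log2 CPM of each gene minus its mean over the 3 sham libraries (colour, from -4 to 4, with values beyond shown at the end colours) for the 10 markers and 4 other gene lists, with the libraries in columns under the deposited labels and lines between the groups. Most genes of the recruited list are red in MIRI 1, MIRI 3, GXNI 2 and GXNI 3, and most genes of the resident list are pale in all libraries.

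The ligands of the receptors among the markers were measured as well. Csf1 had 47.1, 73.65 and 88.6 CPM in sham, 94.4, 41.9 and 82.5 CPM in MIRI, and 46.3, 69.8 and 119 CPM in GXNI mice. Its log2 fold change was 0.08 in MIRI against sham (SE 0.35), and the groups overlapped. Il34, the other ligand of Csf1r, lay between 3.205 and 6.285 CPM in all libraries. Cx3cl1, the ligand of Cx3cr1, had 4.03 to 8.89 CPM in sham, 4.29 to 10.1 CPM in MIRI and 4.92 to 13.2 CPM in GXNI mice. In GXNI against MIRI the log2 fold change was 0.11 for Csf1 (SE 0.42) and 0.0362 for Cx3cl1 (SE 0.47) with the deposited labels. The direction turned with exchanged labels, where Csf1 (-0.89, SE 0.22, adjusted p = 0.0278, edgeR) and Cx3cl1 (-1.05, SE 0.22, adjusted p = 0.0194, edgeR) were lower in GXNI than in MIRI mice. Ccl2, the main ligand of Ccr2, had 1.61 to 6.26 CPM in sham mice and 84.0, 76.3, 45.2 and 149 CPM in MIRI 1, MIRI 3, GXNI 2 and GXNI 3. It was the 1 gene called higher of 7 tested among the 8 ligands and attractants in MIRI against sham (3.78, SE 1.06, adjusted p = 0.1, edgeR), and 4 of 8 were called higher with exchanged labels, Ccl2 by 4.68 (SE 0.45). Over all genes 6.15% were called higher with the deposited and 19.2% with the exchanged labels.

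Genes of other cell types differed between the same libraries. The cardiomyocyte genes summed to 29870 to 33040 CPM in MIRI 1, MIRI 3, GXNI 2 and GXNI 3 and to 39710 to 47420 CPM in the other 5 libraries. The 10 neutrophil genes summed to 28.6 to 53.6 CPM in sham, 25.6 to 640 CPM in MIRI and 46.9 to 575 CPM in GXNI mice, with the 4 high libraries again MIRI 1, MIRI 3, GXNI 2 and GXNI 3. Of these genes 1 of 6 tested, S100a8, was called higher in MIRI than in sham mice with the deposited labels and 8 of 8 with exchanged ones. The shares of all genes called higher were 6.15% and 19.2%, respectively. Ltf was at 0 counts in every sham library, Ngp was at 0 in the library labelled MIRI 2, and Camp was at 0 in sham 1, MIRI 2, GXNI 2 and GXNI 3. The part of neutrophils and of cardiomyocytes in the values of Arg1 and Ly6c2 was not tested. For Lyve1, which also marks lymphatic vessels, the 6 lymphatic genes summed to 99.8 to 119 CPM in sham, 102 to 163 CPM in MIRI and 112 to 147 CPM in GXNI mice, and Prox1, the defining factor of those vessels, which heart muscle cells express as well, lay at 54.1 CPM in GXNI 1 and 22.65 to 71.35 CPM over all libraries. Pdpn, another of the 6, had a mean of 6.88 CPM in sham, 41.8 CPM in MIRI and 40.45 CPM in GXNI mice. In GXNI 1, where Lyve1 was highest, the lymphatic genes summed to 112 CPM. Their mean log2 CPM was highest there, at 2.92, but that mean includes Ccl21a, which was at most 0.0993 CPM in any library. The log2 ratio of Lyve1 to Prox1 ranged from -1.06 in sham 3 to 0.82 in MIRI 3. The part of lymphatic vessels in the values of Lyve1 was not tested.

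Of 13427 genes with a mean of at least 1 CPM, those whose log2 CPM went most closely with each marker over the 9 libraries were sought by Pearson correlation, as a description. Arg1 was nearest to Fcrlb (r = 0.989), Vps37c (r = 0.985) and F7 (r = 0.982), and Ly6c2 to Oas3 (r = 0.982) and Ms4a4c (r = 0.981). Cd68 was nearest to Parvg (r = 0.987), Arl4c (r = 0.973) and Dab2 (r = 0.972). For the resident markers Cd163 went with Stxbp6 (r = 0.968), Lyve1 with Unc13b (r = 0.96), Mrc1 with A530013C23Rik (r = 0.928) and Folr2 with Zfp157 (r = 0.935). Slc9a9 was among the 3 nearest genes of both Mrc1 and Cd163, Olfml3 of both Cd163 and Lyve1, and Timd4, a phosphatidylserine receptor of resident macrophages, of Folr2 (r = 0.924). Adgre1 went with Mospd2 (r = 0.972), Csf1r with Tm6sf1 (r = 0.916) and Cx3cr1 with Espl1 (r = 0.924). Arg1 and Ly6c2 correlated with each other at 0.725 and with Cd163 at -0.661 and -0.73, respectively.

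The genes stand at the following places in GRCm38 (GENCODE M21). Adgre1 lies on chromosome 17 from 57358691 to 57483527 (plus strand), Cd68 on chromosome 11 from 69664213 to 69666153 (minus strand), Mrc1 on chromosome 2 from 14229392 to 14332057 (plus strand) and Cd163 on chromosome 6 from 124304656 to 124330527 (plus strand). Lyve1 lies on chromosome 7 from 110850607 to 110863239 (minus strand) and Folr2 on the same chromosome from 101839988 to 101857194 (minus strand). Cx3cr1 lies on chromosome 9 from 119901616 to 120069879 (minus strand), Ly6c2 on chromosome 15 from 75108158 to 75111970 (minus strand) and Arg1 on chromosome 10 from 24915221 to 24927484 (minus strand). Folr2 shares 975 exon bases with the antisense gene Gm10602, Csf1r 873 exon bases with Hmgxb3 on the opposite strand and Cx3cr1 78 exon bases with the antisense gene Gm33858. Whether reads were counted by strand is not given in the sources used here, so the reads of these pairs cannot be told apart with certainty.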

How the data were processed

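Heart RNA of 3 sham, 3 MIRI and 3 GXNI mice was sequenced, each library from 1 animal. Adapter sequence and reads of low quality were removed by the authors, who used HISAT2 for alignment and featureCounts (Subread) for read counts of genes. The build is mm10 in the submitters' processing notes, and versions, annotation and strand setting are not given in the sources used here. The deposited values are these raw counts, without normalization. At the depths given, 3 counts correspond to 0.132 to 0.175 CPM.

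Groups follow the deposited labels. All genes were fitted with the quasi-likelihood F test of edgeR 4.0.16 (TMM normalization, filterByExpr) with the 6 libraries that each comparison needs, called at a fold change of 1.5 and an unadjusted p of 0.01, with Benjamini-Hochberg adjusted p over all genes tested. The alternatives were DESeq2 1.42.0, RLE normalization, no filter, mitochondrial genes left out, all 9 libraries in 1 fit, a replicate block, an adjusted p of at most 0.05, each replicate left out, the libraries labelled MIRI 2 and GXNI 3 left out, and their labels exchanged. The exchanged labels with DESeq2 were added after seeing the data. The scripts were tested on simulated data. The markers and lists were chosen with earlier results of these data known. All markers are named, and of other lists the 3 genes of highest mean CPM, with ligands and paralogs of markers and Ccr2. Ccl24, Trem1, Vcan and the genes named for counts of 0 (Upk1b, Upk3b, Ltf, Camp, Ngp) were chosen after their values were seen. A further gene near Ly6c2 in the correlation search is not reported here.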

Additional observations from a re-analysis of the deposited data

How the results depend on the processing

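Among the counts of markers called, DESeq2 gave 1 lower in GXNI against sham mice, where edgeR gave 0, and the fit without a filter gave 2 higher and 1 lower there. The count of 1 higher became 0 at an adjusted p of at most 0.05 in both comparisons with sham, and in GXNI against sham also with all 9 libraries in 1 fit. With exchanged labels the counts were 3 higher in MIRI against sham, 1 lower in GXNI against MIRI and 0 higher in GXNI against sham, and DESeq2 gave 3, 1 and 0 as well, plus 1 lower in each comparison with sham. In GXNI against sham DESeq2 gave no p for Arg1 with exchanged labels, so that this 0 leaves Arg1 untested. With single replicates left out the count of higher markers ranged from 0 to 3 for both comparisons with sham, the count of lower ones from 0 to 1 in both, and both counts stayed at 0 in GXNI against MIRI. The causes of these changes were not tested, other than that leaving out a library removes an animal.

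Same-numbered mice did not deviate together in every pair. Correlations were -0.085 to 0.108 in MIRI against sham and -0.076 to 0.118 in GXNI against sham. In GXNI against MIRI they were -0.445 to 0.701. These values, from few libraries and with labels in doubt, cannot tell whether same-numbered mice share more than a number. With the replicate number as a block the call of Arg1 in GXNI against sham was lost (0 higher, log2 fold change 3.18, adjusted p = 0.263, edgeR), and the sign turned for Csf1r against sham (-0.0296 in MIRI, -0.0146 in GXNI) and for Mrc1 (-0.0424), Cd163 (-0.31) and Lyve1 (-0.0788) in GXNI against MIRI.

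Other values turned sign without being called. Csf1r turned to -0.0033 with DESeq2, -0.0014 with all 9 libraries, -0.15 without MIRI 2 and GXNI 3, -0.23 with exchanged labels and -0.24 with these and DESeq2 in GXNI against MIRI, and to -0.0035 without a filter, -0.12 with exchanged labels and -0.12 with these and DESeq2 in GXNI against sham. With exchanged labels, without and with DESeq2, Lyve1 turned to -0.16 in MIRI against sham (-0.16 with DESeq2), Folr2 to 0.31 (0.31) and Ly6c2 to -3.001 (-3.04) in GXNI against MIRI, and Mrc1 to 0.04 (0.0341) and Cd163 to 0.25 (0.25) in GXNI against sham. Ly6c2 also turned to -1.38 without both libraries. With single replicates left out, the log2 fold change in MIRI against sham went from -0.15 to 0.21 for Csf1r, -0.51 to 0.12 for Cd163 and -0.0122 to 0.27 for Lyve1. In GXNI against MIRI it went from -0.33 to 0.18 for Adgre1, -0.48 to 0.13 for Cd68, -0.20 to 0.17 for Csf1r, -0.47 to 0.44 for Mrc1, -1.06 to 0.54 for Cd163, -0.62 to 0.41 for Lyve1, -0.81 to 2.30 for Ly6c2 and -1.40 to 0.45 for Arg1. In GXNI against sham it went from -0.19 to 0.15 for Csf1r, -0.68 to 0.23 for Mrc1, -1.29 to 0.29 for Cd163 and -0.48 to 0.53 for Lyve1. For MIRI against sham and GXNI against sham, leaving out both libraries is the same as leaving out the 1 of them in that comparison. Over all genes the numbers called higher and lower in MIRI against sham were 900 and 413, and 1491 and 760 with DESeq2, 1603 and 803 without a filter, 535 and 265 with all 9 libraries, 2571 and 2021 without MIRI 2, 2848 and 2462 with exchanged labels and 2 and 0 at an adjusted p of at most 0.05. In GXNI against MIRI they were 0 and 3, 228 and 520 without both libraries and 1264 and 1575 with exchanged labels, and in GXNI against sham 392 and 226, 994 and 407 with DESeq2, 999 and 426 without a filter, 299 and 142 with all 9 libraries and 0 and 0 at an adjusted p of at most 0.05. The p values rest on 3 animals in a group, and Ly6c2, Folr2 and Cx3cr1 on low counts.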
